A study of Mus musculus with 36 samples.

Results

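RNA from untreated mouse embryonic fibroblasts (MEFs, mesenchymal cells grown from embryos) was compared between lines homozygous for the N129D knock-in allele of Tbk1 (hom) and wild-type lines (WT). The comparison took the untreated libraries without a density label by the genotype, treatment and line in their titles: 3 hom lines (E1.4, E2.2, E2.9), which carry 2 copies of the allele, and 3 WT lines (E1.5, E2.1, E2.7), which carry 0. These were 6 of the 36 libraries of the series, 1 library per line. The other libraries came from lines with 1 copy (het, 4 lines), from cells treated for 4 h with the double-stranded RNA mimic poly(I:C) or with antimycin and oligomycin, and from WT line E1.5 with a label of high or of low density. The labels give no passage number and no age or sex of the embryos. They name separate lines without saying that each came from its own embryo or culture day. P-values therefore measure the spread between these lines, whatever its source. The allele is a germline change carried by every cell of a line, and gene counts do not show which allele was read.

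TBK1 is a kinase that sits below the sensors of foreign nucleic acid: RIG-I and MDA5 signal to it through MAVS, TLR3 through TRIF, and cGAS through STING. Active TBK1 phosphorylates the transcription factor IRF3, which switches on the interferon beta gene and a first set of antiviral genes. Secreted interferon then acts through its receptor and the JAK kinases to form ISGF3, a complex that contains STAT2 and IRF9 and drives the interferon-stimulated genes. Many of these genes keep a low basal level in fibroblasts without infection. Optineurin and p62, which bring cargo to autophagosomes, are further substrates of the kinase.

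The 6 libraries held 4361854 to 8024569 counts. All values below are CPM (counts scaled to library size, as adjusted by TMM), listed in the order E1.5, E2.1, E2.7 for WT and E1.4, E2.2, E2.9 for hom. The summed level of 12 fibroblast markers was 11116 to 14168 CPM, with Fn1 the highest in each line. Line E1.4 stood apart from the other 9 untreated lines on the leading principal component, at 68.5 against -18.2 to 1.59, and of the 6 lines had the highest summed smooth muscle (4733 CPM), chondrocyte (315 CPM), neural and glial (349 CPM), epithelial (33.2 CPM) and adipocyte (154 CPM) markers. Its skeletal muscle sum (32.8 CPM) was also the highest, with Des at 30.2 CPM and Myod1, Myog, Myf5 and Myh3 at 0. Line E2.9 held RNA of macrophage markers: their summed level was 261 CPM with 0 of 16 at 0 and Lyz2 at 97.7 CPM, against 3.15 to 5.8 CPM with 8 to 13 of 16 at 0 in the other 5 lines. Xist was high in 2 WT and 2 hom lines, and the Y-linked Ddx3y in 1 of each. In bulk RNA, fewer cells expressing a gene and less RNA per cell cannot be told apart.

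Genes of the interferon response were lower in untreated hom lines than in WT lines, and they made up nearly the whole difference that passed the test. Of 12428 genes tested, 55 fell in hom lines (0.443%) and 0 rose, by edgeR's quasi-likelihood test (Benjamini-Hochberg adjustment, threshold 0.05). With p left unadjusted, 206 genes were lower and 152 higher at the same threshold. Of the 55 genes, 49 belonged to the lists of interferon, sensing and antiviral genes. The other 6 were Trim12c, Apol9a, Apol9b, Ifi211, Rnf213 and Samd9l, named here after their values were seen. The median log2 difference of the 55 was -3.12, against 0.012 for all genes tested; 45 fell at least 4-fold and 17 at least 16-fold. The values of the 3 hom lines lay below those of the 3 WT lines for all 55, a pattern that 3.74% of all tested genes had and whose opposite 5.78% had.

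The number of genes that passed differed widely between fits. With all 30 libraries without a density label in the fit, Ifit1 and Ccl5 passed (2 genes, adjusted p = 0.0387 each); with the 10 untreated libraries, het lines included, Ccl5 passed alone (1 gene, adjusted p = 0.0322); with the line as a replicate block in limma-voom, 0 genes passed. DESeq2 on the same 6 libraries called 88 genes lower, all 55 among them, and 2 higher. Without WT line E1.5, E2.1 or E2.7 the test called 33, 25 and 32 genes lower, and without hom line E2.9 it called 34. All 55 genes kept a negative difference in each of these fits. Their hom values all lay below their WT values at the outset, so leaving out a line could not reverse the sign. The other fits compared the same hom and WT libraries, so the shared sign adds no support. A total of 25 of the 55 passed in each of the 6 fits that left out 1 line, and Dhx58, Herc6, Ifi27, Oas1b and Trim30d passed in 0 of them. Ifi204 and Stat2 passed in 5 of the 6, and Dtx3l, Ifit3b and Iigp1 in 2. Adar, Eif2ak2, Mx2, Parp14 and Trim25 passed in 1. The genes reported below as having fallen passed in all 6, unless a lower number is given here or below.

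**Figure D1:**
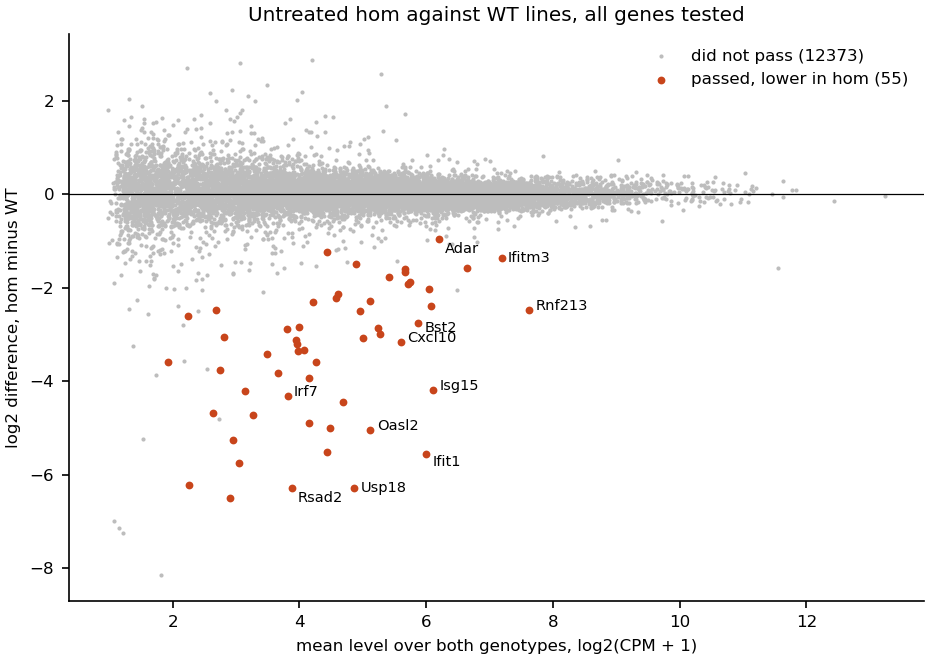
Difference between untreated hom and WT lines (vertical axis, log2) against mean level over both genotypes (horizontal axis, log2 of CPM + 1) for the 12428 genes tested, 1 point per gene. The 55 genes that passed are coloured and all lie below 0; the grey points far below 0 at the left are genes of few counts that did not pass.

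Interferon beta itself was not seen in untreated cells. Ifnb1 had 0 counts in all 6 libraries, which allows up to 0.174 CPM in WT lines and 0.13 CPM in hom lines (a floor of 3 counts over each group, counting error only). Of 10 interferon and antiviral chemokine genes, 2 had enough counts to be tested and both fell. Ccl5, which attracts T cells and monocytes, was at 48.5, 20.5 and 28.7 CPM in WT lines and at 0.987, 1.26 and 1.01 CPM in hom lines (log2 difference -4.90 ± 0.40 SE, adjusted p = 0.00275). Cxcl10, a ligand of the chemokine receptor CXCR3, was at 90.0, 72.4 and 93.9 CPM against 4.93, 15.9 and 7.93 CPM (-3.17 ± 0.39 SE, adjusted p = 0.0196). The hom values of Ccl5 were nearly equal to each other, while Cxcl10 in hom line E2.2 was above the other hom lines and still below each WT line. Cxcl10 passed in 2 of the 6 fits without 1 line.

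The cytosolic sensors of double-stranded RNA RIG-I and MDA5 were among the genes that fell. Of 12 genes of sensing and adaptor proteins tested, 6 fell and 0 rose, with a median of -1.51. Ddx58, which encodes RIG-I, was at 104, 114 and 119 CPM in WT lines and at 15.8, 27.2 and 22 CPM in hom lines (-2.39 ± 0.20 SE, adjusted p = 0.00318). Ifih1, which encodes MDA5, was at 87.4, 54.6 and 58.1 CPM against 11.1, 10.2 and 4.15 CPM (-2.99 ± 0.37 SE, adjusted p = 0.0201) and passed in 2 of 6 fits without 1 line. No hom value of either gene reached the lowest WT value. The remaining members that fell were Dhx58, Ifi204, Eif2ak2 (the kinase PKR) and Adar, an RNA-editing enzyme whose fall was the smallest of all 55 genes (99.3, 99.9 and 87.3 CPM against 42.5, 51.0 and 55 CPM; -0.97 ± 0.13 SE, adjusted p = 0.0323). Zbp1, a sensor of Z-form nucleic acid that can trigger necroptosis, had 45 counts over the WT lines and 0 over the hom lines, at least 20-fold lower by the floor of 3 counts, and missed the threshold (adjusted p = 0.0533). Tlr3 was at 8.19, 11.6 and 10.6 CPM against 2.96, 4.02 and 4.28 CPM and did not pass either (adjusted p = 0.154).

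Of 10 IRF and STAT genes tested, 4 fell, Irf7, Irf9 and Stat2 among them, and 0 rose, with a median of -0.16 over the 10. Irf7, which amplifies interferon production, was at 25.8, 26.5 and 22.4 CPM in WT lines and at 1.36, 1.38 and 1.01 CPM in hom lines (-4.32 ± 0.22 SE, adjusted p = 0.000823). Irf9 and Stat2, subunits of ISGF3, fell less. Irf9 was at 81.6, 83.4 and 79.2 CPM against 21.8, 20.3 and 23.3 CPM (-1.92 ± 0.11 SE, adjusted p = 0.00108). Stat2 was at 75.8, 80.3 and 89.8 CPM against 18.1, 28.3 and 21.6 CPM (-1.87 ± 0.18 SE, adjusted p = 0.00643). Each of these 3 genes was within a narrow range in the lines of a genotype, and the genotypes did not overlap. Irf1 was at 45.4, 53.3 and 45.1 CPM against 34.3, 45.5 and 40.4 CPM, overlapped between genotypes and did not pass (-0.28 ± 0.14 SE).

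In 7 lists of interferon-stimulated effectors counted as a whole, 71 of 92 genes were tested, 37 fell, 0 rose and 71 had a negative difference, with a median of -2.30. Of the 71, 66 were lower and 0 higher at an unadjusted p under 0.05 by edgeR, against 206 and 152 of all 12428 genes tested. In hom line E2.9, which held the macrophage RNA, the summed level over these lists was 1166 CPM, against 1138 and 1154 CPM in the other hom lines and 2817 to 3314 CPM in WT lines. Without E2.9, 23 of the genes fell. By list, 3 of 4 tested Ifit genes fell (median -5.28), 3 of 5 OAS and RNase L genes (-4.72), 4 of 6 genes of ISG15 conjugation (-1.71), 17 of 40 other antiviral effectors (-1.73), 4 of 7 antiviral PARP genes (-1.68), 3 of 4 guanylate-binding protein genes (-3.57) and 3 of 8 immunity-related GTPase genes (-2.69). Among the tested members, 1 other antiviral effector and 1 immunity-related GTPase gene had 0 counts in hom lines, and none in the other lists. Setting them to their bound left the medians as they were. Both bounds lay below the median of their list, so these medians could not change.

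The ISG15 system attaches the small ubiquitin-like protein ISG15 to other proteins. Isg15 itself (chr4:156199424-156200818, minus strand, GRCm38) was at 167, 116 and 105 CPM in WT lines and at 4.69, 9.54 and 7.17 CPM in hom lines (-4.19 ± 0.29 SE, adjusted p = 0.00179). Usp18, which removes ISG15 and dampens interferon receptor signalling, was at 64.9, 61.6 and 40.7 CPM against 0.247, 1.0 and 0.881 CPM (-6.28 ± 0.38 SE, adjusted p = 0.00108), a 78.3-fold lower mean. Both genes had hom levels far under the lowest WT level. The ligases Trim25 and Herc6 fell by 1.6 and 1.24 on the log2 scale, and the activating enzyme gene Uba7 did not pass (-1.82 ± 0.32 SE, adjusted p = 0.117).

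Ifit proteins bind foreign RNA and block its translation. Ifit1 (chr19:34640871-34650009, plus strand, GRCm38) was at 142, 106 and 120 CPM in WT lines and at 1.36, 4.90 and 1.64 CPM in hom lines (-5.56 ± 0.41 SE, adjusted p = 0.00234). Ifit3 was at 51.0, 27.4 and 46.2 CPM against 1.11, 2.01 and 0.755 CPM (-5.00 ± 0.40 SE, adjusted p = 0.00256). Its near-identical neighbour Ifit3b had 224 counts over the WT lines and 3 over the hom lines, a ratio of 99.8 (95% counting interval 33.7 to 488); reads shared between the copies make the value of each less certain. Ifit2 differed from these genes: at 58.1, 44.6 and 53.2 CPM against 26.1, 29.8 and 26.4 CPM, its genotypes did not overlap, but the difference of -0.94 ± 0.14 SE missed the threshold (adjusted p = 0.0542).

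OAS enzymes make the second messenger that activates RNase L, an enzyme that cuts RNA. Oasl2 had the smallest adjusted p of the comparison, at 77.7, 63.6 and 55.4 CPM in WT lines and 1.97, 2.39 and 1.64 CPM in hom lines (-5.04 ± 0.21 SE, adjusted p = 0.000505). Oasl1, a translational brake on Irf7, was at 21.9, 15.4 and 12.8 CPM against 0.740, 0.879 and 0.252 CPM (-4.72 ± 0.43 SE, adjusted p = 0.00451). Oas1a was low in WT line E2.7, at 17.2, 13.3 and 2.34 CPM against 0, 0.251 and 0.881 CPM, and did not pass (adjusted p = 0.269).

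**Figure D2:**
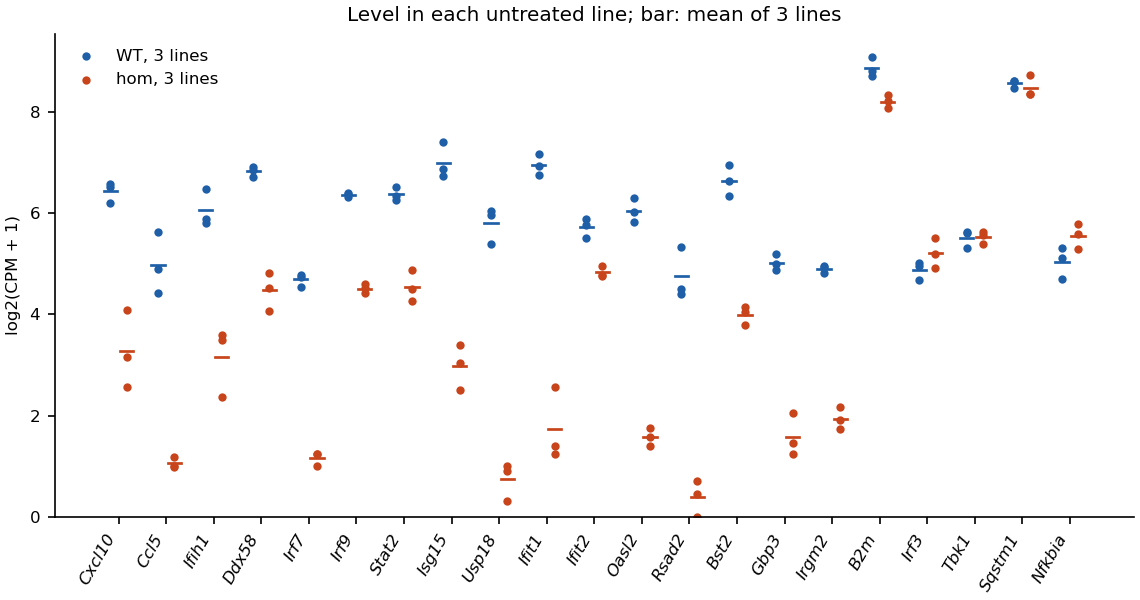
Level of 21 genes in each untreated line (vertical axis, log2 of CPM + 1); each point is 1 line and each bar the mean of the 3 lines of a genotype. From Cxcl10 to Irgm2 every hom point lies below every WT point, B2m shows a small gap, and Irf3, Tbk1, Sqstm1 and Nfkbia overlap.

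A site of the interferon pathway was frequent in the promoters of the genes that fell. The interferon-stimulated response element (ISRE) is the site bound by ISGF3 and, in related forms, by IRF3 and IRF7. Its core, GAAANNGAAA on either strand, was looked for in the 250 bases before the start of each gene. Of the 55 genes, 42 had a promoter in the RefSeq table (GRCm38.p6), and 20 of these (47.6%) held the core, against 294 of 9518 tested genes (3.09%) and 936 of all 27025 promoters (3.46%). In 17 of the 20 a match lay within 150 bases of the start and in 14 within 100 bases; the median distance of the nearest match was 56 bases. A site for NF-kB (GGGANNNNTCC or GGGANNNNCCC, either strand), a factor switched on by the same sensors, was in 7 of the 42 (16.7%), 1155 of the 9518 (12.1%) and 9.34% of all promoters. A match describes letters in this window and does not show binding. Some of the 20 promoters are copies of each other. Apol9a and Apol9b share the same stretch, as do Ifit3 and Ifit3b. Those of Igtp and Irgm2 are nearly the same, as are those of Trim30a and Trim30d. The 20 are therefore not independent promoters. The following stretches come from effectors, 2 GTPase genes and a subunit of ISGF3 that fell, each on the strand of its gene, 5′ to 3′, with matches to the core in capitals. Their strands and positions are chr4:156200855-156200974 (minus) for Isg15, chr19:34640714-34640833 (plus) for Ifit1, chr12:26456543-26456662 (minus) for Rsad2, chr11:58199432-58199551 (plus) for Igtp, chr11:58214823-58214942 (plus) for Irgm2 and chr10:128270248-128270305 (plus) for Stat2.
Isg15: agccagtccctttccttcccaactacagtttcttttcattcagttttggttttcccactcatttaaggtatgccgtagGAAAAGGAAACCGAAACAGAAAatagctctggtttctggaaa
Ifit1: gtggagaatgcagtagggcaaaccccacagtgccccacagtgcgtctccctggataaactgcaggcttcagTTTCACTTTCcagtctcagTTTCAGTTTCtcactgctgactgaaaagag
Rsad2: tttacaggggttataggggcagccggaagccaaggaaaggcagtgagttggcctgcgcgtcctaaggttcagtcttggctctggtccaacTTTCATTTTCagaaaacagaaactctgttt
Igtp: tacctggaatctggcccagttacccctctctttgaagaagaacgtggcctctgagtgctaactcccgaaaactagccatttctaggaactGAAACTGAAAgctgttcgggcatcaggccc
Irgm2: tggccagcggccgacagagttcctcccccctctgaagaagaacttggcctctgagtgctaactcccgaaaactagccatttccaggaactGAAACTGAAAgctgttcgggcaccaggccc
Stat2: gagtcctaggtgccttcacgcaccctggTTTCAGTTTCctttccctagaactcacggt
Isg15 held 3 overlapping matches, the nearest ending 57 bases before the start. Ifit1 held 2, and the Igtp and Irgm2 stretches held 1 each. In Stat2 the match was farther out, ending 213 bases before the start.

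Among the other antiviral effectors, Rsad2, which encodes viperin, an enzyme that makes a chain-terminating nucleotide, was at 39.2, 21.7 and 20.2 CPM in WT lines and at 0, 0.377 and 0.629 CPM in hom lines (-6.29 ± 0.62 SE, adjusted p = 0.00665). Its neighbour Cmpk2, a nucleotide kinase gene, was at 18.3, 11.4 and 13 CPM against 0.123, 0.502 and 0.126 CPM (-5.75 ± 0.49 SE, adjusted p = 0.00318). Levels of both genes in hom lines were below 1 CPM. Ifi44 was at 52.0, 42.2 and 26.4 CPM against 0.247, 1.38 and 1.01 CPM (-5.51 ± 0.47 SE, adjusted p = 0.00318). Bst2, which encodes tetherin, a protein that holds budding virus at the cell surface, kept more of its level, at 122, 98.2 and 79.8 CPM against 16.8, 12.8 and 15.4 CPM (-2.76 ± 0.19 SE, adjusted p = 0.00179). Ifitm3, which blocks virus entry, kept most, at 201, 220 and 204 CPM against 76.7, 88.0 and 82.3 CPM (-1.36 ± 0.11 SE, adjusted p = 0.00256). The genotypes did not overlap for any of these 5 genes. The Mx GTPases were near their detection limit in hom lines. Mx2 had 134 counts over the WT lines and 2 over the hom lines, a ratio of 89.6 (95% counting interval 24.3 to 747), and passed (adjusted p = 0.0154). Mx1 had 41 and 0 counts, at least 18.3-fold lower, and did not (adjusted p = 0.0871).

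The antiviral PARP genes, whose products attach ADP-ribose to proteins or join such complexes, fell in 4 of 7 cases: Parp9, Parp12, Parp14 and Dtx3l. Parp9 was at 55.6, 60.4 and 51.7 CPM in WT lines and at 10.5, 11.7 and 12.6 CPM in hom lines (-2.29 ± 0.14 SE, adjusted p = 0.00108). Guanylate-binding proteins and immunity-related GTPases act on the membranes around intracellular pathogens. Gbp3 was at 35.5, 28.5 and 30.7 CPM against 1.36, 3.14 and 1.76 CPM (-3.93 ± 0.30 SE, adjusted p = 0.00256). Gbp2 and Gbp7 fell by 2.30 and 3.21 on the log2 scale and passed in 1 and 2 of the 6 fits without 1 line. Irgm2, whose promoter is shown above, was at 29.8, 29.5 and 27.3 CPM against 2.34, 2.76 and 3.52 CPM (-3.34 ± 0.20 SE, adjusted p = 0.00108), and Igtp fell by 2.89. For Parp9, Gbp3 and Irgm2 the highest hom level was under the lowest WT level by a wide gap. Iigp1 fell by 5.25, while Tgtp1, with 48 counts over WT lines and 0 over hom lines, was at least 21.4-fold lower and did not pass (adjusted p = 0.115). These families hold near-identical copies, between which reads may have been shared, and the bound for Tgtp1 depends on that sharing. Tgtp2, the other Tgtp gene tested, differed by -2.01 ± 0.60 SE and did not pass (adjusted p = 0.915).

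**Figure D3:**
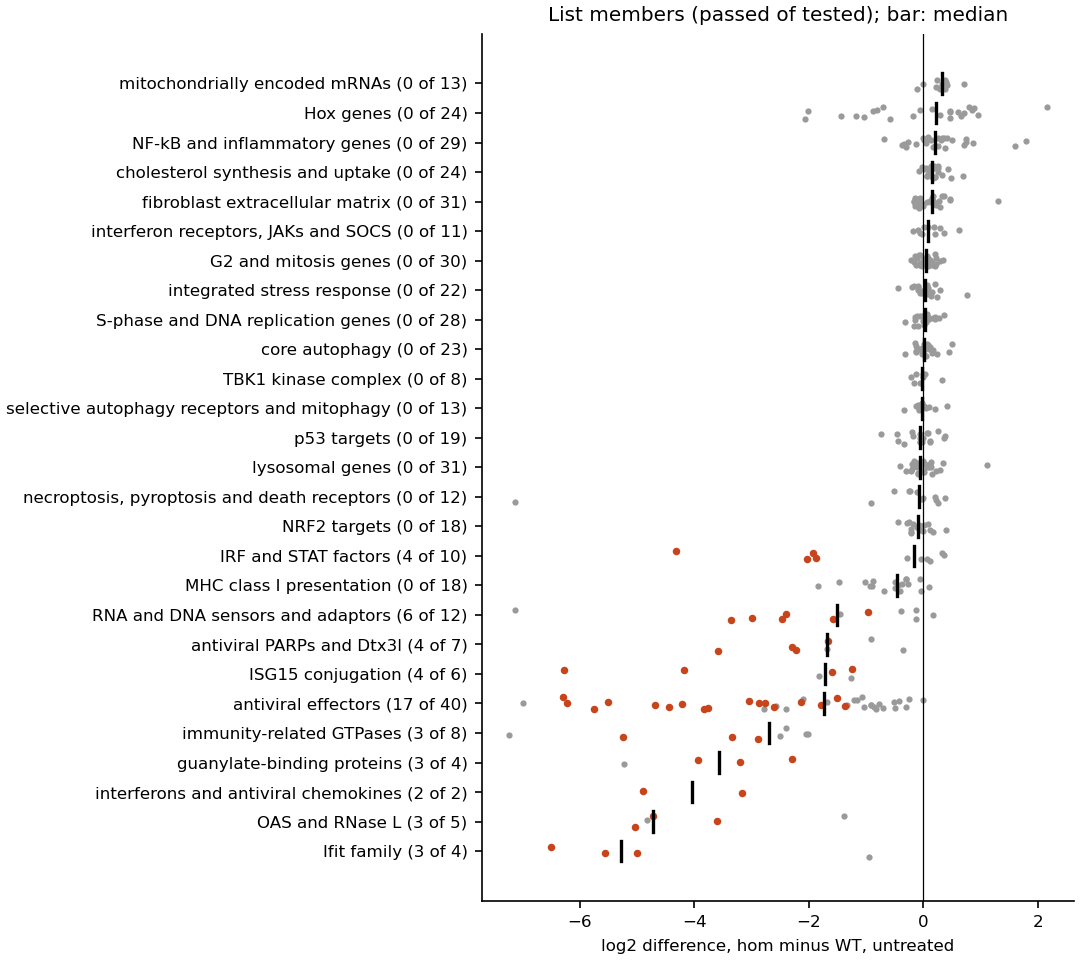
Log2 difference between untreated hom and WT lines for the tested members of each gene list, 1 point per gene, coloured where the gene passed, with a bar at the median. Lists at the bottom hold interferon-stimulated effectors, sensors and chemokines, with medians from -5.28 to -1.51, and lists from IRF and STAT factors upward have medians from -0.16 to 0.33 and, apart from that list, 0 members that passed; MHC class I lies between, at -0.46.

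Genes of MHC class I presentation, which interferon also raises, differed less, and 0 of 18 passed (median -0.46). At an unadjusted p under 0.05 by the same edgeR test, 9 of the 18 were lower, against 206 of all 12428 genes tested. DESeq2 called 3 of them lower. B2m, the light chain of MHC class I, was at 542, 447 and 418 CPM in WT lines and at 319, 267 and 295 CPM in hom lines (-0.69 ± 0.14 SE, adjusted p = 0.224). Tap1, a subunit of the peptide transporter, was at 10.4, 16.2 and 10 CPM against 4.93, 5.02 and 3.40 CPM (-1.47 ± 0.29 SE, adjusted p = 0.214). Both genes had every hom line below every WT line.

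The mRNA of the kinase and its partners showed no difference that passed. Tbk1 (chr10:121546455-121586787, minus strand, GRCm38) was at 47.6, 38.7 and 48.3 CPM in WT lines and at 40.7, 46.3 and 48.3 CPM in hom lines, a difference of -0.01 ± 0.14 SE. The values of the genotypes overlapped. Of 8 genes of the TBK1 complex, 0 passed in either direction, by edgeR or DESeq2, and 0 at an unadjusted p under 0.05; their differences ran from -0.21 to 0.33. The top of that range was Irf3, at 24.6, 30 and 31.1 CPM against 44.3, 35.3 and 29.3 CPM (0.33 ± 0.19 SE). Receptor and JAK genes likewise had 0 of 11 members past the threshold in either direction and 0 at an unadjusted p under 0.05, with Ifnar1 at 0.01 ± 0.15 SE and Ifnar2 at 0.30 ± 0.18 SE. Of 13 selective autophagy genes, 0 passed and 0 reached an unadjusted p under 0.05, and the p62 gene Sqstm1 was at 391, 354 and 389 CPM against 422, 323 and 324 CPM (-0.10 ± 0.14 SE). Core autophagy (23 genes) and lysosomal genes (31) had 0 members that passed, with medians of 0.02 and -0.05. The unadjusted p was under 0.05 for 0 core autophagy genes and 1 lysosomal gene, Tfeb (1.11 ± 0.42 SE).

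NF-kB is the other arm below these sensors, and no gene of its list passed. Of 29 NF-kB and inflammatory genes tested, 0 passed in either direction by edgeR and 0 were called lower by DESeq2. The median was 0.21, and 7 of the 29 had a negative difference. At an unadjusted p under 0.05 by edgeR, 5 were higher and 0 lower, against 152 and 206 of all 12428 genes tested. Nfkbia, which encodes the inhibitor of NF-kB, was at 24.9, 33.7 and 38.7 CPM against 38.0, 47.0 and 54.4 CPM (0.50 ± 0.21 SE, adjusted p = 0.915). Relb, a subunit of the non-canonical pathway, was at 19.9, 21.2 and 26.2 CPM against 29.5, 30.6 and 31 CPM (0.42 ± 0.15 SE, adjusted p = 0.915). The Nfkbia values overlapped and those of Relb did not. Tnfaip3, which encodes the inhibitor A20, was at -0.01 ± 0.37 SE. Among 12 necroptosis, pyroptosis and death receptor genes, 0 passed by edgeR and 2 were lower at an unadjusted p under 0.05: Zbp1, described above, and Mlkl, the executioner of necroptosis, at 21.3, 17.5 and 15.1 CPM against 9.87, 9.42 and 9.56 CPM (-0.92 ± 0.18 SE, adjusted p = 0.217).

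Lists outside immunity had 0 members that passed by edgeR, and medians from -0.10 to 0.33, against 0.012 for all genes tested. The medians were 0.03 for the integrated stress response (22 genes), -0.10 for NRF2 targets (18), -0.05 for p53 targets (19), 0.05 for G2 and mitosis genes (30), 0.03 for S-phase genes (28), 0.16 for cholesterol genes (24), 0.16 for extracellular matrix genes (31), 0.22 for Hox genes (24) and 0.33 for mitochondrially encoded mRNAs (13). DESeq2 called 0 of these genes lower. A negative difference was seen in 2 of the 13 mitochondrially encoded mRNAs, 2 of the 24 cholesterol genes, 7 of the 28 S-phase genes and 13 of the 18 NRF2 targets. At an unadjusted p under 0.05 by edgeR, 3 mitochondrially encoded mRNAs and 1 cholesterol gene were higher. By the same measure 1 p53 target was lower, and 1 S-phase gene differed in each direction. Of all 12428 genes tested, 152 were higher and 206 lower. At an unadjusted p under 0.05, 3 Hox genes were lower: Hoxa13, Hoxd12 and Hoxd13, which mark the distal limb and genital region in the embryo. Hoxd13 was at 98.5, 46.1 and 54.9 CPM in WT lines against 17.8, 44.0 and 12.8 CPM in hom lines (adjusted p = 0.915), so that hom line E2.2 lay just under the WT lines. Among the 5 genes with the smallest p that were higher in hom lines without overlap, with log2 CPM averaging 1 or more, were Hvcn1, a proton channel gene, and Unc93b1, a chaperone gene of endosomal Toll-like receptors. Hvcn1 was at 0.945, 1.69 and 1.06 CPM in WT lines against 3.7, 4.77 and 3.27 CPM in hom lines (1.62 ± 0.38 SE, adjusted p = 0.473). Unc93b1 was at 3.62, 4.94 and 3.41 CPM against 9.99, 6.91 and 8.31 CPM (1.05 ± 0.28 SE, adjusted p = 0.724). The 2 genes that DESeq2 called higher were Csf1r, a macrophage marker at 31.1 CPM in E2.9, 3.33 CPM in E1.4 and 0.377 CPM in E2.2, and Gm5831, at 7.15, 3.39 and 0.881 CPM in hom lines and 0 in WT lines.

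The other libraries of the same 6 lines gave the same sign for all 55 genes. Under poly(I:C), 118 of 12029 genes fell in hom lines (0.981%) and 0 rose, by edgeR's quasi-likelihood test on those 6 libraries alone; 51 of the 55 were among the 118, and the median of the 55 was -3.53 (range -6.68 to -1.79). Under antimycin and oligomycin, inhibitors of the respiratory chain and of ATP synthase, 37 of 11686 genes fell (0.317%) and 0 rose; 35 of the 55 were among the 37, with a median of -3.33 (range -6.67 to -0.75). Without adjustment, 227 genes were higher at p under 0.05 under poly(I:C) and 62 under antimycin and oligomycin. The 3 hom values were below the 3 WT values for all 55 genes under both treatments, which was so for 5.86% of all genes tested under poly(I:C) and 6.85% under antimycin and oligomycin. These are libraries of the lines already compared, so they are further measurements and not further lines. Isg15 differed by -4.19 ± 0.29 SE untreated, by -3.79 under poly(I:C) and by -4.18 ± 0.20 SE under antimycin and oligomycin. Usp18 differed by -6.28, -5.47 and -6.13, and Adar, the smallest fall of the untreated comparison, by -0.97, -1.80 and -0.75. With 30 libraries in the fit, 34 genes passed under poly(I:C) and 0 under antimycin and oligomycin. Without 1 line, the counts were lowest without E2.2 under poly(I:C), at 67 genes (78 without E2.7), and without E2.1 under antimycin and oligomycin, at 8 genes (9 without E1.5, 10 without E2.7 or E2.9, 14 without E2.2).

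**Figure D4:**
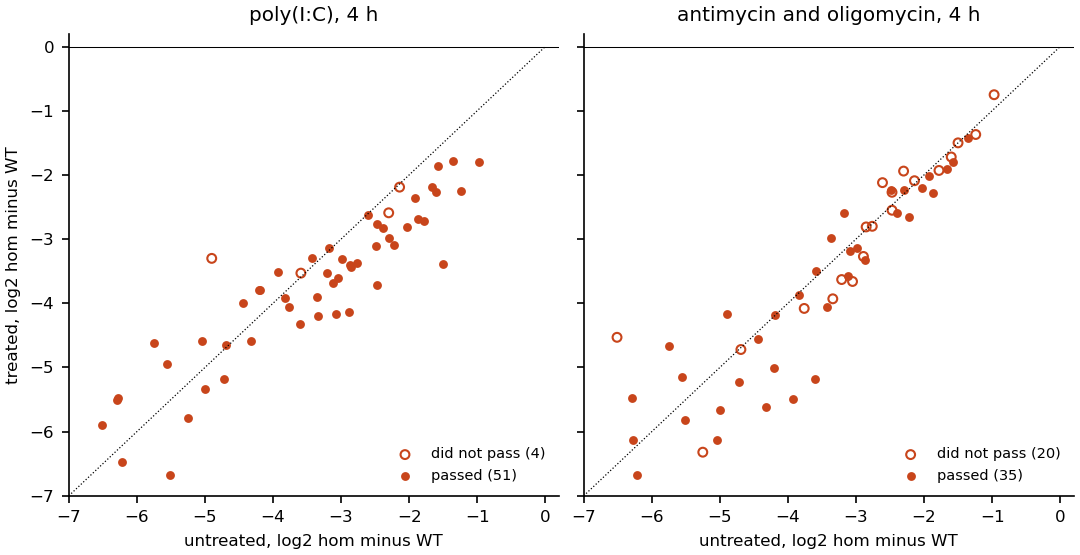
Log2 difference between hom and WT lines for the 55 genes in treated libraries (vertical axes) against the same difference in untreated libraries (horizontal axes), under poly(I:C) (left) and antimycin and oligomycin (right). All points lie below 0; filled points passed in the treated comparison (51 and 35 of 55), open points did not, and the dotted line marks equal differences.

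Lines with 1 copy of the allele spread over a wider range than the WT or the hom lines. Averaged over the 55 genes, the level (mean log2 of CPM + 1) was 5.36, 5.25 and 5.13 in WT lines, 2.23, 2.65 and 2.48 in hom lines, and 4.61, 6.65, 3.68 and 4.29 in the lines with 1 copy (E1.3, then E2.5, E2.6 and E2.8). Line E2.5 lay above all WT lines, the other het lines lay between WT and hom. For single genes, 45, 0, 55 and 54 of the 55 were below all WT lines in these het lines, in the same order, and 55, 55, 50 and 55 were above all hom lines. Over all genes tested, 21.1%, 23.2%, 32% and 19.3% were below all WT lines in these libraries, and 19%, 18.4%, 24.4% and 19.5% above all hom lines. Isg15 was at 84.2, 325, 43.3 and 71.4 CPM in the 4 het lines, with E2.5 far above the rest. These genes were chosen by the WT and hom values, and het lines were not tested against them.

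The same genes also differed between densities of a single WT line. WT line E1.5 had a mean of 6.15 at high density and 4.29 at low density, against 5.36 without a density label and 2.23 to 2.65 in hom lines. At low density, 53 of the 55 genes were below all 3 WT lines, and at high density 0 were, against 27.9% and 9.72% of all genes tested. At both densities, 55 of 55 were above all hom lines, as were 22.1% of all genes tested at low density and 27.8% at high density. With 1 untreated library per density, these levels are given as values with no test; the treated libraries with a density label were not used here. The density of the 6 compared libraries is not labelled, and its part in the difference was not tested.

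**Figure D5:**
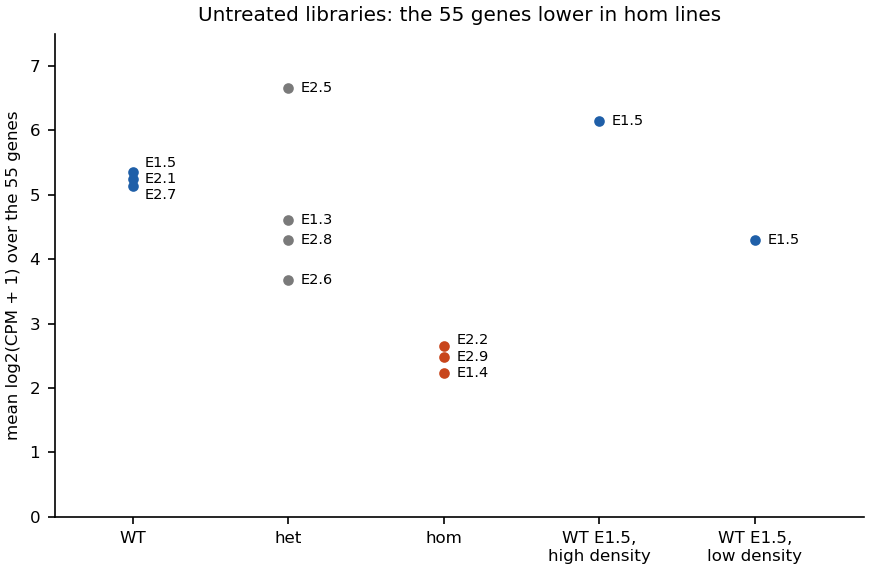
Mean level of the 55 genes (vertical axis, mean log2 of CPM + 1 over the genes) in each untreated library; each point is 1 library and carries its line name. The hom lines sit at 2.23 to 2.65, below the WT lines at 5.13 to 5.36, the het lines at 3.68 to 6.65 and WT line E1.5 at low density (4.29) and high density (6.15).

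Genes near Tbk1 on chromosome 10 were looked at apart, since lines that share a knock-in allele can also share the chromosome around it. Within 10 Mb of Tbk1, 112 genes were tested, and 1 fell, Stat2, which starts 6.68 Mb beyond the end of Tbk1. At an unadjusted p under 0.05 there were 3 of the 112 (2.68%), against 2.88% of all genes tested. The 55 genes lay on 17 chromosomes, with 8 on chromosome 11, 6 on chromosome 7 and 5 each on chromosomes 3 and 16.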

How the data were processed

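RNA was measured by stranded mRNA sequencing from 500 ng of total RNA per library, per the labels' protocols. The authors deposited expected counts (fractional estimates of the reads of each gene) in 1 table per library. STAR, RSEM and mm10 are named without versions, per the submitters' processing notes; the sources used here give neither strand setting nor annotation. RSEM shares reads between similar genes, so near-identical copies are less certain. Of 49585 genes, 49326 matched GENCODE vM21 (GRCm38).

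Expected counts were rounded and tested in edgeR 4.0.16 under R 4.3.3 (TMM, filterByExpr with minimum count 10 and minimum total 15, quasi-likelihood F test, Benjamini-Hochberg adjustment, no fold limit) on the 6 libraries of each comparison alone. SE is the log2 difference divided by the square root of F. CPM use 1 TMM scale over 32 libraries. The treated libraries with a density label were not used. Groups came from the titles.

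The lines, gene lists, named genes and tests were chosen with earlier results of these data known. That includes the choice of the 6-library fit over a fit of 30 libraries: the counts of both were known, and the larger fit calls far fewer genes. The 6-library fit holds only the groups compared, with 1 library per line; the 30-library fit treats up to 3 libraries of a line as independent. That reason does not separate it from the fit of 10 untreated libraries, which also has 1 library per line, or from the replicate block, which allows for repeated lines; these call 1 and 0 genes. Named genes were Tbk1, the 15 largest falls and rises that passed without overlap and with log2 CPM averaging 1 or more (where fewer than 5 passed, the 5 with the smallest p), the 3 smallest p of each list, and a fixed set. The other genes named, among them further genes that passed and list members close to the threshold, were chosen after their values were seen. Lists are described by counts and medians, with no set test.

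Libraries of a line share their cells across treatments, per the line names in the labels; their estimated correlation over genes was 0.474 in limma 3.58.1. Replicates differed by more than sampling noise (chi-square per degree of freedom 8.20 to 43.0). Alternatives were RLE factors, no filter, DESeq2 1.42.0, the 10 untreated or all 30 libraries, the line as a replicate block, a covariate for E1 or E2 in the line name or for Y-linked expression, and omission of each line in turn. The test was tried on simulated counts. Values of some single genes are not reported here; counts over genes and lists include them.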

Additional observations from a re-analysis of the deposited data

Results flagged for a closer look

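Among the 4 untreated het lines, E2.5 was flagged as far from the other 3 for 14 named genes, and in each it was the highest. Signalling genes among them were Irf7 at 110 CPM (others 5.24 to 14.7), Ddx58 at 256 CPM (39.4 to 70.2) and Tlr3 at 40.5 CPM (4.17 to 6.99). Of the ISG15 and Ifit genes, Usp18 was at 188 CPM (7.5 to 23.6), Isg15 at 325 CPM (43.3 to 84.2), Ifit1 at 321 CPM (45.5 to 82.4) and Ifit3 at 159 CPM (11.9 to 25.7). Oasl1 was at 46.8 CPM (7.78 to 13.4) and Oas1a at 51.2 CPM (1.55 to 2.52). Mx1 was at 9.54 CPM (0 to 0.891), Mx2 at 28.1 CPM (0.833 to 5.05), Bst2 at 319 CPM (22 to 61.5), Gbp2 at 72.7 CPM (14.9 to 20.2) and Gbp3 at 101 CPM (8.22 to 18). All 14 values come from 1 library, so they are not independent of each other. E1.3 was the only het line with a high Xist level, at 889 CPM (0 to 9.10). Chance flags about 1 in 20 groups of this size.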

How the results depend on the processing

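The number of genes that passed depended on the fit. The sign of the difference was negative for all 55 genes in every fit tried. These genes were chosen by adjusted p, and each had every hom value below every WT value. Leaving out a line therefore could not reverse their sign, and the wider fits took the same hom and WT libraries. In place of 55 lower genes, the test called 2 with all 30 libraries, 1 with the 10 untreated libraries and 0 with the line as a replicate block; DESeq2 called 88 lower and 2 higher in place of 0. Leaving out 1 line gave 25 to 53 (33 without WT line E1.5, 25 without E2.1, 32 without E2.7, 34 without hom line E2.9). At an unadjusted p under 0.05, 54 of the 55 were lower with 30 libraries and 52 with the replicate block. Of the 7 effector lists, 37 members fell; the count was 1 with 30 libraries, 0 with 10 libraries, 0 with the replicate block, 24 with Y-linked expression as a covariate and 18 to 35 without 1 line (22 without E1.5, 20 without E2.7, 23 without E2.9, 24 without E2.2). RLE factors (55), no filter (67), E1 or E2 as a covariate (55) and Y-linked expression (39) stayed within 1.5 times the count of 55. The line is nested in the genotype, so the block pairs no hom line with a WT line. Under poly(I:C), 118 became 34 with 30 libraries and 67 to 115 without 1 line (78 without E2.7), and 0 higher became 1 without WT line E2.1 (Pkp1) or without hom line E2.2 (Lbh). Under antimycin and oligomycin, 37 became 0 with 30 libraries and 8 to 45 without 1 line (9 without E1.5, 10 without E2.7 or E2.9, 14 without E2.2). Why the wider fits call fewer genes was not tested.

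Changes of sign were followed for the named genes only, not for all genes tested. Among the named genes, differences that changed sign belonged to 10, none of which passed in the comparison. With Y-linked expression as a covariate, Tbk1 was at 0.00, Ifnar1 at 0.00 and Xist at 0.09; with E1 or E2 as a covariate, Ifnar1 was at -0.01; with the replicate block, Tbk1 was at 0.01, Ifnar1 at -0.01 and Ikbke at 0.03. Without 1 line, sign changes gave Tbk1 0.03 to 0.06, Ifnar1 -0.07 to -0.01 (-0.06 without E2.9), Ikbke 0.17 to 0.22, Tnfaip3 0.16 to 0.31 (0.19 without E2.2), Optn 0.03 to 0.11, Cxcl1 0.10 to 0.24, Xist 0.00 to 0.03, Ccl2 -0.01, Nbr1 0.07 and Tank 0.07. With 3 lines per genotype and 4361854 to 8024569 counts per library, genes under about 1 CPM, such as Ifnb1, Oas2 and Oas3, could not be compared.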
